A study of Caenorhabditis elegans with 12 samples.

Results

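Many C. elegans genes are known in the array's annotation only by a clone name, which joins the genomic clone on which the gene was found to a running number, as in R102.2. Of 6717 clone-named genes measured here, 61 (0.908%) had mean log2 expression at least 2.5 higher in GFP+ than in GFP- cells, both in mir-124 mutant cells (replicates 1 to 3) and in wild-type cells (replicates 1 and 2). Each gene was read from the probe set, annotated to that gene alone, with the highest mean over the 12 arrays. Among 10401 genes with other names, 117 (1.12%) passed the same thresholds, so that the 61 were part of 178 such genes among 17118. These differences selected the 61 genes, and they are therefore described without a test.

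The arrays profiled 4 groups of 3 samples: mutant GFP+, mutant GFP-, wild-type GFP+ and wild-type GFP- cells, all from embryos of animals grown at 20 °C. Per the protocols, which are the same for all 12 samples, the cells carried an integrated transgene in which the mir-124 promoter drives GFP (pmir-124::GFP), coinjected with a lin-15 rescue plasmid into lin-15(n765) animals and later outcrossed to the N2 strain. The mutant strain is labelled mir-124; its allele, and whether the reporter came from 1 integrated line, are not given in the sources used here. Embryos of all 12 samples were treated with chitinase and dissociated, and their cells were cultured for 24 h. Then 500000 cells per sample were sorted by GFP. Each value is therefore an average over a mixture of cells defined by the reporter, not over 1 cell type. In such bulk samples, fewer cells of a type and less RNA per cell cannot be told apart. The triplicates are described as biological, but separate cultures are not stated, so a p-value here weighs a difference against the scatter of these samples, which may be technical.

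The microRNA miR-124 is conserved between worms and vertebrates, and in C. elegans its gene is active in many ciliated sensory neurons. The cilium of such a neuron is the sensory ending that holds receptors for odours, tastes and temperature; it is built by intraflagellar transport, in which motor proteins carry cargo along the ciliary microtubules. A microRNA acts by pairing with messenger RNAs, mostly in the 3' untranslated region, and lowering their stability or translation. A clone name says nothing of what a gene does, and products or roles of these 61 genes were not looked up here. RefSeq's annotation of WBcel235 held all 61 under the same symbol, 59 as protein-coding genes and 2, Y41E3.5 and C53C7.5, as pseudogenes. A pseudogene can share sequence with a functional copy elsewhere, and the probe set of Y41E3.5 carries the suffix _x_at, which marks probes that can bind unrelated transcripts as well. The probe sets of C35E7.2, K07C11.10, W09H1.1, Y45G5AM.6 and T06G6.3 carry _s_at, which marks probes shared by related transcripts, and the other 55 carry neither mark.

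Lists of cilium and body wall muscle genes separated the fractions on 10 of the 12 arrays. The mean log2 expression over 48 of 49 listed cilium genes was 8.13 to 8.65 on 5 GFP+ arrays (3 mutant, 2 wild-type), against 5.38 to 5.64 on 5 GFP- arrays, and over 15 body wall muscle genes it was 7.31 to 7.84 on the GFP+ arrays, against 9.595 to 10.305 on the GFP- arrays. The remaining 2 arrays are the wild-type replicate 3 pair. On wild-type GFP+ replicate 3 the cilium mean was 8.90 and the muscle mean 7.72, against 8.94 and 7.56 on the library labelled wild-type GFP- replicate 3, so that this second library goes against its label. The rule for the 61 genes did not use this pair, and results with and without it are given below. Of the cilium genes, 32 of 48 passed both thresholds themselves. The mean over 15 pan-neuronal genes was 9.42 to 9.71 on the 5 GFP+ arrays, against 7.85 to 8.41 on the 5 GFP- arrays. This gap was smaller than that of the cilium list. Over 8 glia genes the fractions overlapped, with means of 6.97 to 7.31 on the GFP+ and 6.985 to 7.45 on the GFP- arrays.

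Over the 61 clone-named genes, the GFP+ minus GFP- difference in mutant cells was 2.55 to 6.56 (log2), with a median of 3.40. In wild-type replicates 1 and 2 it was 2.51 to 5.97, with a median of 3.09. The smaller of the 2 differences was at least 3 in 33 genes, at least 4 in 8 and at least 5 in 2. All 61 had their lowest GFP+ value above their highest GFP- value over these 10 arrays, by 1.415 (Y53F4B.36) to 5.39 (R102.2), with a median gap of 2.497. Such an order was seen in 14.4% of all genes; the rule had selected on this contrast. Ranked by the smaller difference among all 17118 genes, R102.2 and F10E9.1 came at 1 and 2, T05C12.8 at 7, and 7 clone-named genes stood among the first 20. The cilium genes, as named genes of known function, had medians of 3.12 in mutant and 3.13 in wild-type cells.

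**Figure D1:**
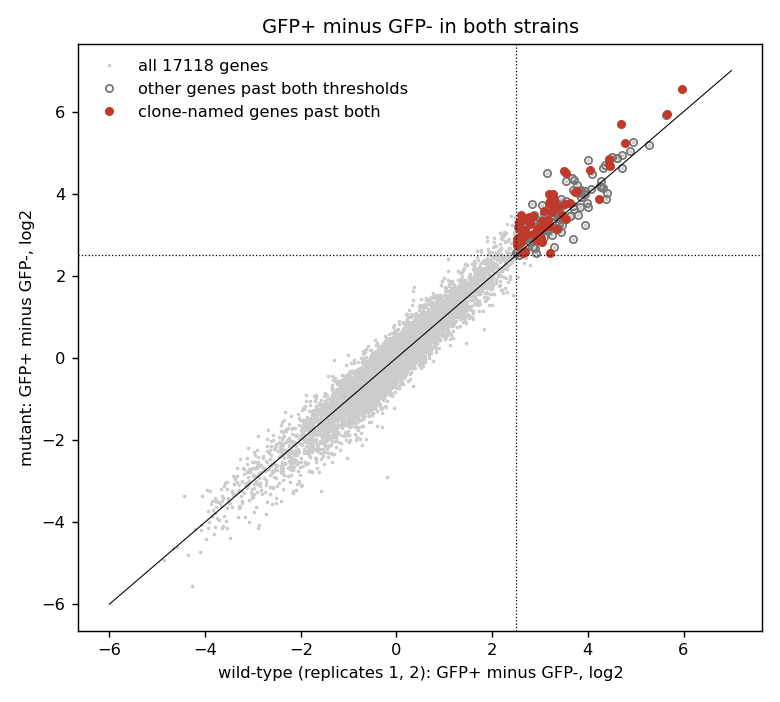
GFP+ minus GFP- difference in mutant cells (vertical axis, log2, mean of 3 minus mean of 3 arrays) against that in wild-type replicates 1 and 2 (horizontal axis, log2) for all 17118 genes, with the thresholds of 2.5 dotted and equality as a line. The 61 clone-named genes, in red, lie up to 6.56 in mutant cells, among the 117 other genes past both thresholds, shown as open circles.

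R102.2 had the largest difference. Its log2 expression was 11.905, 11.95 and 11.98 in mutant GFP+ cells, against 5.33, 5.44 and 5.402 in mutant GFP- cells, a 94.2-fold difference in means. In wild-type it was 11.18 and 11.395 in GFP+ and 5.79 and 4.84 in GFP- cells, a 62.8-fold difference. The fractions were thus separated by more than 5 log2 units on every array of both strains outside the wild-type replicate 3 pair. F10E9.1 had 10.12, 10.06 and 9.82 in mutant GFP+ cells, against 3.59, 4.099 and 4.47 in mutant GFP- cells (61.7-fold). In wild-type, F10E9.1 had 9.62 and 9.61 in GFP+ and 3.92 and 4.01 in GFP- cells (50.2-fold). Its GFP- values differed by 0.88 between the mutant replicates, a small part of the gap between the fractions. T05C12.8 had 9.975, 9.915 and 9.82 in mutant GFP+ cells, against 4.85, 4.89 and 4.24 in mutant GFP- cells (37.8-fold), and in wild-type 9.59 and 9.635 in GFP+ against 4.87 and 4.805 in GFP- cells (27.4-fold). The span of T05C12.8 overlaps that of cct-1, a subunit of a chaperonin, whose own differences were 0.19 in mutant and 0.01 in wild-type cells.

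The pseudogene Y41E3.5 followed, with 9.485, 9.85 and 9.76 in mutant GFP+ cells, against 4.03, 3.94 and 4.04 in mutant GFP- cells (51.8-fold). In wild-type, Y41E3.5 had 8.59 and 8.996 in GFP+ and 4.24 and 3.96 in GFP- cells (25.8-fold), so its GFP+ values were lower in both wild-type replicates than in any mutant one while its GFP- values overlapped. T23B3.6 had 10.86, 10.83 and 11.335 in mutant GFP+ and 5.95, 6.17 and 6.87 in mutant GFP- cells (25.6-fold), and in wild-type 10.67 and 10.799 in GFP+ against 5.92 and 6.61 in GFP- cells (22.1-fold). Every mutant GFP+ value of T23B3.6 was above both wild-type ones, while its GFP- values overlapped between the strains. F13E6.2 had 9.06, 8.63 and 8.92 in mutant GFP+ and 3.895, 4.12 and 4.03 in mutant GFP- cells (29.0-fold), and in wild-type 8.65 and 8.32 in GFP+ against 4.03 and 4.07 in GFP- cells (21.7-fold). R02E12.4 had 9.31, 8.88 and 9.01 in mutant GFP+ and 4.301, 4.35 and 4.37 in mutant GFP- cells (26.4-fold), and in wild-type 9.29 and 8.35 in GFP+ against 4.58 and 4.18 in GFP- cells (21.7-fold). The wild-type GFP+ values of R02E12.4 lay well apart, yet the lowest GFP+ value on these arrays was 3.765 log2 units above the highest GFP- one. C01G12.7 had 8.59, 8.905 and 9.05 in mutant GFP+ and 4.11, 4.49 and 4.21 in mutant GFP- cells (23.9-fold), and in wild-type 8.41 and 8.69 in GFP+ against 4.42 and 4.597 in GFP- cells (16.5-fold).

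The next genes differed by 9.70-fold to 23.5-fold, and some varied more among replicates. C33A12.4 had 10.655, 10.603 and 10.745 in mutant GFP+ cells, against 5.82, 6.92 and 7.63 in mutant GFP- cells (14.7-fold). In wild-type it had 9.898 and 9.95 in GFP+ and 5.64 and 5.75 in GFP- cells (18.7-fold). C33A12.4 was one of 10 genes whose wild-type difference was the larger one, and its mutant GFP- values spread over 1.805 log2 units, the widest range in that group. C35E7.2 had 9.72, 9.76 and 9.82 in mutant GFP+ and 5.87, 5.896 and 5.32 in mutant GFP- cells (16.8-fold), with 9.75 and 9.57 in GFP+ and 5.89 and 5.86 in GFP- cells of wild-type (13.8-fold). Outside the wild-type replicate 3 pair, the GFP+ values of C35E7.2 lay close together across both strains. K07C11.10 had 9.82, 9.48 and 9.425 in mutant GFP+ and 5.46, 5.64 and 5.51 in mutant GFP- cells (16.4-fold), with 9.16 and 8.685 in GFP+ and 5.315 and 5.06 in GFP- cells of wild-type (13.3-fold). C30B5.6 had 9.97, 10.27 and 9.78 in mutant GFP+ and 6.01, 6.501 and 6.21 in mutant GFP- cells (13.6-fold), with 10.15 and 9.68 in GFP+ and 6.13 and 6.425 in GFP- cells of wild-type (12.4-fold). In C30B5.6 the strains overlapped in both fractions, whereas every mutant GFP+ value of K07C11.10 was above both wild-type ones.

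W09H1.1 and F14D7.8 were among the 3 genes in which the mutant difference exceeded the wild-type one the most. W09H1.1 had 9.72, 9.78 and 9.49 in mutant GFP+ and 5.045, 5.46 and 4.98 in mutant GFP- cells (22.6-fold), against 9.26 and 9.13 in wild-type GFP+ and 5.71 and 5.62 in wild-type GFP- cells (11.6-fold). F14D7.8 had 9.34, 9.48 and 9.304 in mutant GFP+ and 4.61, 4.59 and 5.26 in mutant GFP- cells (23.5-fold), against 8.74 and 8.85 in wild-type GFP+ and 5.35 and 5.22 in wild-type GFP- cells (11.4-fold). For W09H1.1 the mutant arrays were higher in GFP+ and lower in GFP- cells than both wild-type ones. C35D10.12 had 9.94, 9.91 and 9.71 in mutant GFP+ and 6.03, 6.84 and 5.46 in mutant GFP- cells (13.4-fold), with 9.86 and 9.77 in GFP+ and 6.303 and 6.29 in GFP- cells of wild-type (11.4-fold). F55A4.3 had 7.47, 7.31 and 6.91 in mutant GFP+ and 3.63, 4.14 and 3.498 in mutant GFP- cells (11.1-fold), with 7.03 and 6.399 in GFP+ and 3.17 and 3.35 in GFP- cells of wild-type, a fold nearly as large. F55A4.3 was one of 9 genes whose GFP- values were below the lower quartile of their array, 4.06 to 4.22, on all 5 GFP- arrays. The other 8 were F13E6.2, R02F11.2, T24C4.3, C56E10.3, ZK899.7, T06G6.3, C23G10.10 and F58B4.2, while 42 genes were above that quartile on every GFP- array.

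The list of the 20 largest differences closed with 4 genes at 9.70-fold or more. K06A4.2 had 10.31, 10.09 and 9.92 in mutant GFP+ and 6.73, 6.62 and 5.92 in mutant GFP- cells (12.9-fold), with 10.25 and 9.74 in GFP+ and 6.604 and 6.63 in GFP- cells of wild-type (10.4-fold). Y45G5AM.6 had 9.535, 9.18 and 9.09 in mutant GFP+ and 5.71, 6.37 and 5.61 in mutant GFP- cells (10.4-fold), with 9.48 and 9.04 in GFP+ and 5.87 and 5.57 in GFP- cells of wild-type (11.6-fold). Both genes had overlapping strains in each fraction. F28D1.6 had 9.92, 10.41 and 10.58 in mutant GFP+ and 6.21, 6.64 and 6.45 in mutant GFP- cells (14.6-fold), with 9.51 and 9.935 in GFP+ and 6.29 and 6.555 in GFP- cells of wild-type (9.85-fold). F57C7.4 had 7.71, 7.75 and 8.585 in mutant GFP+ and 4.34, 4.502 and 3.87 in mutant GFP- cells (13.7-fold), with 7.95 and 8.09 in GFP+ and 4.69 and 4.785 in GFP- cells of wild-type (9.70-fold). The mutant GFP+ values of F57C7.4 lay on both sides of the wild-type ones, with replicate 3 the highest.

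**Figure D2:**
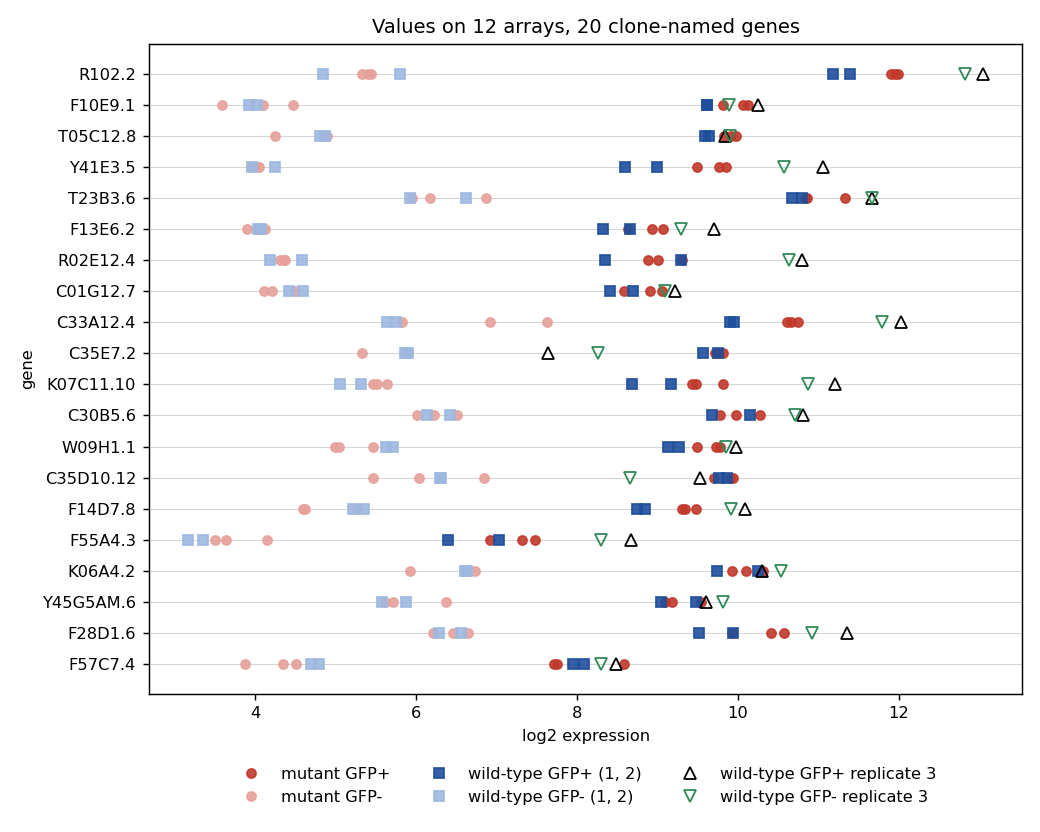
Log2 expression (horizontal axis) on each of the 12 arrays for the 20 clone-named genes with the largest smaller difference, 1 gene per row, mutant as circles and wild-type replicates 1 and 2 as squares, dark for GFP+ and light for GFP-. Open triangles are the wild-type replicate 3 pair, which lie near or beyond the GFP+ values in most rows, as in R102.2 at 13.04 and 12.83, but below them in C35E7.2 at 7.64 and 8.26, and in C35D10.12 at 9.53 and 8.66.

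At the threshold, the 3 genes just inside were F58H7.1, Y22D7AL.16 and Y50C1A.2, with smaller differences of 2.55, 2.52 and 2.51. The 3 clone-named genes just outside were K12H6.12, K08C7.4 and F59G1.4, with 2.48, 2.47 and 2.46. The values run on across the threshold without a gap. The mutant difference was the larger in 51 of the 61 genes, with a median excess of 0.30. It was the larger in 81 of the 117 other genes past both thresholds, with a median excess of 0.14. Over all genes it was the larger in 9228 of 17118, with a median excess of 0.019. The excess was highest in F14D7.8 (1.05), Y41E3.5 (1.00) and W09H1.1 (0.965), while F58H7.1 had the lowest value, -0.67. As the same arrays selected the genes, these excesses carry no test.

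Among the mutant replicates, the spread within a group was smaller than the difference between the fractions in each of the 61 genes; the wild-type groups, where replicate 3 stood apart, are described with that pair. Over the 61 genes, the range across the 3 mutant GFP+ arrays had a median of 0.49, and it was over 1 log2 unit in 5 genes, C29F4.3, C03H5.7, ZC132.9, F58B4.2 and Y53F4B.36. ZC132.9 had the widest, with 6.42, 6.64 and 8.19, a range of 1.77 beside a difference between the fractions of 3.02. In mutant GFP- cells the median range was 0.55, and the range was over 1 in 7 genes, C33A12.4, C35D10.12, C29F4.3, ZK1320.5, R10H10.4, H03A11.2 and F18E9.1. Mutant GFP- replicate 2 was the highest of its group in 39 of the 61 genes (63.9%), against 38.5% of the other genes past both thresholds and 34.5% of all genes. Replicate 3 of that group was the lowest in 36 of the 61 (59.0%), against 29.9% of those other genes and 46.0% of all genes. In these replicates 1, 2 and 3, the mean of the 61 genes was 5.01, 5.28 and 4.97, and that of the pan-neuronal genes was 8.03, 8.41 and 7.85. The cilium mean was 5.61, 5.57 and 5.64, and the mean over all 6717 clone-named genes was 5.54, 5.55 and 5.51, the same order as in the 61 but over a smaller range. The part of any of these lists in the order of the 61 was not tested.

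On the wild-type replicate 3 pair, which the rule did not use, the 61 genes did not separate the fractions. Their GFP+ minus GFP- difference within the pair had a median of 0.11 (range -0.975 to 1.08), and it was above 0 in 34 and below 0 in 27 genes. It was under 1 in size in 60 of the 61 and under 0.5 in 46. The largest were B0222.1 at 1.08, with 10.12 in GFP+ and 9.04 in GFP-, F58B4.2 at 0.90, with 8.59 in GFP+ and 7.69 in GFP-, and C35D10.12 at 0.87, with 9.53 in GFP+ and 8.66 in GFP-. The most negative were F35C11.4 at -0.975, with 7.104 in GFP+ and 8.08 in GFP-, F58H7.1 at -0.83, with 7.225 in GFP+ and 8.05 in GFP-, and C53C7.5 at -0.81, with 10.005 in GFP+ and 10.81 in GFP-. Within this pair the median difference was -0.088 over the 117 other genes past both thresholds and -0.071 over the cilium list. Over all genes it was 0.079. The lack of separation was thus not particular to the 61. A single pair gives no replicate error and hence no test.

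The values of the library labelled wild-type GFP- replicate 3 lay with those of GFP+ cells. All 61 genes were higher on it than on each of the 5 other GFP- arrays, as were 116 of the 117 other genes past both thresholds and 30.8% of all genes. In 52 of the 61 its value lay within or above the range of the 5 GFP+ arrays, beside 67.2% of all genes. Against the mean of wild-type GFP- replicates 1 and 2 it was higher by a median of 4.04 (range 1.78 to 7.51). R102.2, at 12.83 on this array against 5.79 and 4.84 on the other wild-type GFP- arrays, marks the upper end of that range. Wild-type GFP+ replicate 3 was above all 5 of those GFP- arrays in all 61 genes, beside 36.2% of all genes. The rule had picked genes that were low on those 5 GFP- arrays and high on the 5 GFP+ arrays. These counts beside all genes are therefore a description only.

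Both replicate 3 arrays also differed from the other wild-type GFP+ arrays. Wild-type GFP+ replicate 3 minus the mean of GFP+ replicates 1 and 2 had a median of 0.81 over the 61 genes. This shift had a median of 0.61 over the 117 other genes past both thresholds and 0.60 over the cilium list. Over all genes the median was 0.095. Of the 61, 44 were above 0, 26 more than 1 higher and 3 more than 1 lower, counts not made for all genes. The shift was highest in B0222.1 at 2.55, with 10.12 against 7.52 and 7.64. The 3 lower genes were C35E7.2 at -2.02, with 7.64 against 9.75 and 9.57, and ZK1320.5 and F35C11.4. The library labelled GFP- replicate 3 shifted to the same side of the wild-type GFP+ mean in 53 of the 61 genes. Both shifts subtract the same baseline, which by itself favours the same side, so this count is a description only. Short genes shifted more: 13 genes with an annotated span under 1000 bp had a median shift of 1.44 on GFP+ replicate 3, 12 of them above 0, against 0.52 in the 48 longer ones, 32 of them above 0. R102.2, R10H10.4, Y41E3.5, C33A12.4 and K07C11.10 are among the short ones, and T27A10.2 was the short gene below 0, at -0.18. The same order held in all genes at least as bright, with medians of 0.795 for 1153 short and 0.015 for 8960 longer genes, so it was not particular to the 61. On the spiked polyadenylated control transcripts, the 3' probe sets exceeded the middle ones by 3.56 and 3.53 log2 units on GFP+ and GFP- replicate 3, against 1.64 to 2.18 on the other 10 arrays; the part of this gap in the shifts was not tested.

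**Figure D3:**
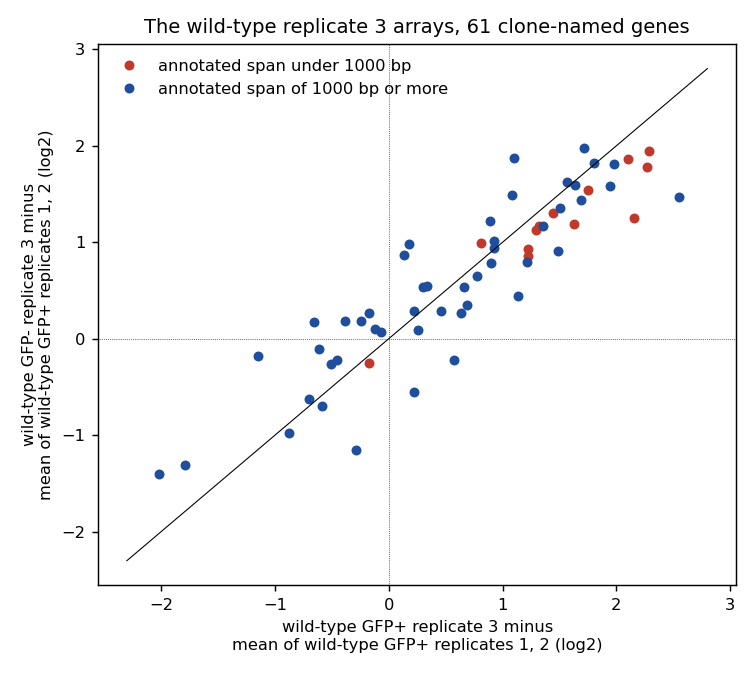
Each point is 1 of the 61 clone-named genes: wild-type GFP+ replicate 3 (horizontal axis) against the array labelled wild-type GFP- replicate 3 (vertical axis), both in log2 units relative to the mean of wild-type GFP+ replicates 1 and 2, with equality as a line. Both arrays lie on the same side of 0 in 53 genes, with the baseline shared by both axes, and the genes with a span under 1000 bp, in red, have a median horizontal shift of 1.44.

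Loss of mir-124 was then examined within each fraction, a contrast the rule did not use although the same arrays entered it. In GFP+ cells, none of the 61 genes passed limma's test across all probe sets at an adjusted p of 0.05 (0 of 61), either over 12 arrays, where 0.0175% of all genes passed, or over the 10 arrays without the wild-type replicate 3 pair, where 0.0234% passed. At an unadjusted p under 0.05, 0 of the 61 stood out over 12 arrays, beside 1.08% of all genes. Over 10 arrays 13 did, all higher in mutant, beside 3.16% of all genes. The 12-array fit shares 1 spread among the 4 groups, so the library labelled wild-type GFP- replicate 3 widened the SE in GFP+ cells too. For T05C12.8 this SE was 1.06 over 12 arrays and 0.189 over 10. With only the 6 GFP+ arrays fitted, 1 of the 61 stood out, beside 1.82% of all genes. The 12-array count of 0 thus cannot show that the strains are alike. The smallest adjusted p of any of the 61 was 1.0 over 12 arrays and 0.563 over 10, for Y41E3.5, and between 0.214 and 1.0 over all 34 other settings. The median mutant minus wild-type difference was 0.05 over 12 arrays, beside -0.025 over all genes, with 36 of the 61 above 0; it was -0.01 after a further quantile normalization. Over 10 arrays it was 0.28, beside 0.01 over all genes, with 53 of the 61 above 0 against 53.3% of all genes, and it lay between 0.19 and 0.37 in the 14 settings that left out the replicate 3 pair, which cover 2 other scalings.

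Without the wild-type replicate 3 pair, each mutant GFP+ array was above both wild-type ones in 19 of the 61 genes, beside 11.4% of all genes. The opposite order was seen in 0 of the 61, beside 8.13% of all genes. The 19 were R102.2, F10E9.1, T05C12.8, Y41E3.5, T23B3.6, C33A12.4, K07C11.10, W09H1.1, F14D7.8, M04D8.7, F46B6.9, C35E7.11, T02G5.3, R10H10.4, C31H2.3, C23G10.10, F27C1.11, Y43F8C.11 and B0222.1. The other genes past both thresholds had nearly the same share, 36 of 117 (30.8%), with 2 in the opposite order, and their median difference over 10 arrays was 0.30, while that of the cilium list was 0.26 with 42 of 48 above 0. Pan-neuronal genes had a median of 0.14 and body wall muscle genes of 0.04 in this contrast. The hypodermis list, which is low in GFP+ cells, had 0.155 with 11 of 12 above 0, beside 53.3% of all genes. Its means on mutant GFP+ replicates 1 to 3 were 6.352, 5.826 and 6.628, against 6.036 and 6.032 on wild-type GFP+ replicates 1 and 2. The intestine list had 0.015 and the glia list 0.043; the part of the share of sensory neurons in the sorted cells was not tested.

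Y41E3.5 had the largest of these differences over 10 arrays, 0.91 ± 0.169 (SE, 3 mutant against 2 wild-type arrays), with limma's adjusted p = 0.563. C31H2.3 followed, at 0.835 ± 0.187 from 8.62, 8.99 and 8.59 in mutant and 7.895 and 7.9 in wild-type GFP+ cells; neither passed the threshold. Over 12 arrays, the largest positive differences were those of ZK1320.5 (0.83 ± 0.633), F46B6.9 (0.79 ± 0.657) and C35E7.2 (0.78 ± 0.666), each with limma's adjusted p = 1.0. On wild-type GFP+ replicate 3 these genes had 7.1, 7.17 and 7.64, the lowest value of that group in each case, and without the pair the differences were 0.23, 0.62 and 0.11. The most negative were R02E12.4 (-0.41 ± 1.38), T09B9.3 (-0.40 ± 1.13) and B0024.15 (-0.365 ± 1.02), again with limma's adjusted p = 1.0, and without the pair they turned positive, at 0.247, 0.175 and 0.235.

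**Figure D4:**
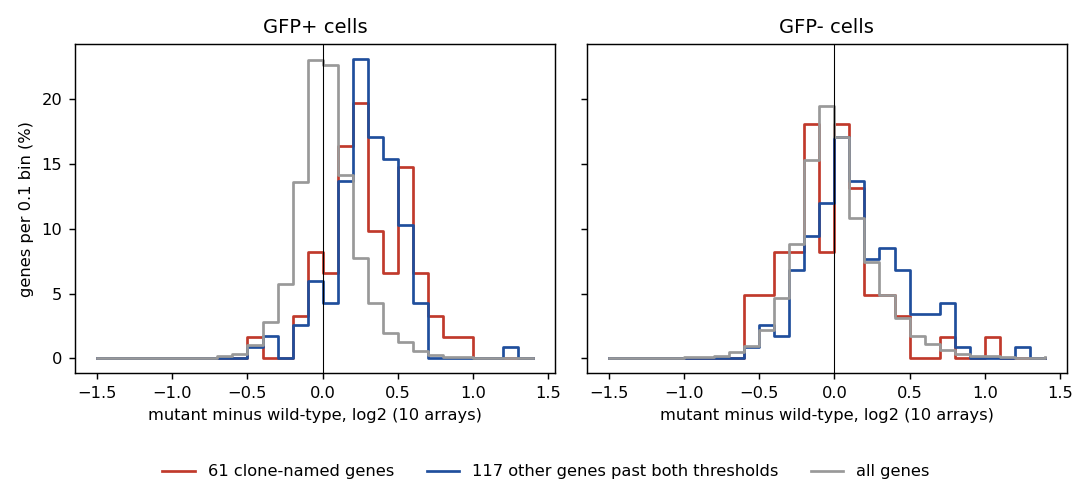
Distribution of the mutant minus wild-type difference (horizontal axis, log2, 10-array fit) in GFP+ cells on the left and GFP- cells on the right, as the percentage of genes per bin of 0.1 (vertical axis), for the 61 clone-named genes, the 117 other genes past both thresholds and all genes. In GFP+ cells the medians are 0.28, 0.30 and 0.01, and in GFP- cells they are -0.035, 0.10 and -0.01.

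In GFP- cells, too, 0 of the 61 genes passed limma's test over 12 arrays, where 0.0234% of all genes passed, and 0 over 10 arrays, where 0.0175% did. The 12-array values rest on the library labelled wild-type GFP- replicate 3: all 61 differences were below 0, with a median of -1.30 beside -0.01 over all genes, and without the pair the median was -0.035, with 29 above and 32 below 0. R102.2 was the most negative over 12 arrays (-2.43 ± 1.61), followed by Y41E3.5 (-2.26 ± 1.43) and R02E12.4 (-2.12 ± 1.38), each with limma's adjusted p = 0.822. Without the pair these genes were at 0.07, -0.10 and -0.04. F58H7.1 had the value nearest 0 over 12 arrays, -0.34 ± 0.751, and was at 0.79 ± 0.261 over 10, from 5.24, 5.803 and 5.32 in mutant and 4.56 and 4.76 in wild-type GFP- cells, with limma's adjusted p = 0.878. The next were Y53F4B.36 (-0.65 ± 0.571 over 12 arrays, 0.0063 over 10) and Y50C1A.2 (-0.78 ± 0.453 over 12 arrays, -0.12 over 10), with limma's 12-array adjusted p = 0.832 and 0.822. At an unadjusted p under 0.05, 1 gene stood out over 12 arrays and 5 over 10 (2 higher, 3 lower), beside 5.06% and 5.51% of all genes, and the smallest adjusted p lay between 0.0995 and 1.0 over all 34 other settings.

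Without the wild-type replicate 3 pair, all mutant GFP- arrays exceeded both wild-type ones in 7 of the 61 genes, beside 8.99% of all genes. All mutant GFP- arrays were below both in 5, beside 8.78% of all genes. The 7 were C33A12.4, K07C11.10, F55A4.3, ZK899.7, T02G5.3, C23G10.10 and F58H7.1, and the 5 were W09H1.1, F57C7.4, T06G6.3, F58A6.2 and Y43F8C.11. Both shares were near those of all genes. C33A12.4 had the highest of these values, 1.10 ± 0.402 (SE, 3 mutant against 2 wild-type arrays) over 10 arrays, with mutant GFP- replicate 1 close to the wild-type values and replicates 2 and 3 above them. In this ordering C33A12.4, K07C11.10, T02G5.3 and C23G10.10 were higher on the mutant arrays of both fractions. W09H1.1 and Y43F8C.11 were higher in mutant GFP+ and lower in mutant GFP- cells. The share of all genes ordered in both fractions was not computed, so this overlap is a description only.

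Other probe sets of the same genes can be set beside the chosen ones, although the rule had picked the brightest. For 54 of the 61 genes the array holds 1 single-gene probe set, and the other 7 have 9 more. All 9 were above 0 in both strains, and 2 passed both thresholds. The other probe set of F13E6.2 had 5.00 in mutant and 4.40 in wild-type, close to 4.86 and 4.44 on the chosen one, and that of Y45G5AM.6 had 2.98 and 2.84, against 3.37 and 3.54. One further probe set of F27C1.11 had 2.59 and 2.205. The others had smaller differences, in mutant and in wild-type: 0.06 and 0.001 in C56E10.3, 0.26 and 0.16 in F57C7.4, 0.24 and 0.14 on the second one of F27C1.11, 0.38 and 0.14 and also 0.92 and 0.96 on those of T02G5.3, and 1.12 and 0.88 in C08F11.13. Apart from that of C08F11.13, with mutant means of 5.235 in GFP+ and 4.11 in GFP- cells, these probe sets were dim in both fractions: the mutant means of C56E10.3 were 3.41 in GFP+ and 3.35 in GFP- cells, those of F57C7.4 were 3.78 in GFP+ and 3.51 in GFP-, and those of the brighter one of T02G5.3 were 4.17 in GFP+ and 3.79 in GFP- cells, while the lower quartiles of the arrays were 4.06 to 4.22. Small differences on probe sets this dim cannot decide whether they and the chosen ones measure the same transcripts, which was not tested. F59A1.11 also shares a probe set with F59A1.12, as dim, at 0.25 and 0.18.

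Of the 122 genes next to them in WBcel235 order, 96 were measured, and 3 of these neighbours passed both thresholds, as did 1.04% of all genes. C35E7.2 and C35E7.11, from the same clone, are neighbours of each other and so make up 2 of the 3; C35E7.11 had 8.94, 8.802 and 8.54 in mutant GFP+ and 5.57, 5.64 and 5.22 in mutant GFP- cells, with 8.49 and 8.28 in GFP+ and 5.61 and 5.08 in GFP- cells of wild-type. M04D8.7 lies next to xbx-3, a gene of the cilium list, whose differences were 5.27 in mutant and 4.94 in wild-type cells. M04D8.7 itself had 8.74, 9.21 and 8.9 in mutant GFP+ and 4.91, 5.32 and 4.64 in mutant GFP- cells, with 8.14 and 8.69 in GFP+ and 5.01 and 5.27 in GFP- cells of wild-type. The spans of 19 genes overlap a neighbour's, where the signal cannot always be assigned to 1 gene. F20D6.5 overlaps F20D6.8, at 2.08 in mutant and 1.80 in wild-type, and F57C7.4 overlaps nhx-5, a sodium-proton exchanger gene, at 1.13 and 1.03. The annotated spans of the 61 ran from 368 bp (R10H10.4) to 9122 bp (F27C1.11), with a median of 2107 bp, against 1910 bp over all clone-named genes.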

How the data were processed

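The members and gene lists were chosen with earlier results of these data known. The deposited values are log2 expression, 1 per probe set and array; per the submitters' processing notes RMA, MAS5, affy and limma were used, without versions or roles, and which of RMA and MAS5 made the table is not settled here. No further scaling was applied. Array medians lay between 5.39 and 5.51, so a shift common to all transcripts could not be seen, and the number of arrays limits the precision.

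Of 22548 probe sets that are not controls, the platform annotation gave 20766 a single gene, 887 several and 895 none; each of 17118 genes was read from the brightest probe set annotated to it alone. Strain contrasts were tested with limma 3.58.1 in R 4.3.3 (lmFit on 12 arrays, fitting 4 group means, then eBayes, 2-sided, Benjamini-Hochberg over all 22548 probe sets, adjusted p of 0.05). A fit over 10 arrays, without the wild-type replicate 3 pair, is given beside it. The script was tested on simulated data. Figures were drawn with matplotlib 3.10.9.

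Named were the 20 members with the largest smaller difference, for each strain contrast the 3 most positive and 3 most negative members over 12 arrays (in GFP- cells the 3 nearest 0, as all were negative) and any that passed, the 3 just inside and outside the threshold, the 3 largest and smallest differences in the wild-type replicate 3 pair, and neighbouring members. Other members are named where a count or an array ordering singles them out, after their values were seen. Same-numbered GFP+ arrays of the 2 strains deviated together from their group means (correlations across probe sets of 0.278, 0.185 and 0.229). The GFP- arrays of replicate 1 did so (0.232), while those of replicates 2 and 3 did not (-0.07 and -0.03). These means include the wild-type replicate 3 arrays. The 12-array and 10-array fits left such pairing out, and a replicate block was fitted as an alternative. With that block over 10 arrays, 21 of the 61 had limma's unadjusted p under 0.05 in GFP+ cells, beside 7.43% of all genes. At an adjusted p of 0.05, 0 of the 61 passed in that fit. Gene spans come from RefSeq's annotation of WBcel235 and were used for length and gene order only. No sequence was used here, so planned searches of promoters and proteins were not run.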

Additional observations from a re-analysis of the deposited data

How the results depend on the processing

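The number of clone-named genes past the thresholds was 61 as reported, 93 at a threshold of 2, 33 at a threshold of 3 and 11 when all 3 wild-type arrays per fraction were used, the last of which brings in the library labelled wild-type GFP- replicate 3; it was 56 with the mean over a gene's probe sets, 64 after a further quantile normalization, and 57 to 64 when each replicate was left out in turn. In both strain contrasts, 0 of the 61 were called in the 12-array fit and in each of 34 alternatives, of which 21 were planned. These included the replicate block (0 called in each fraction), a filter that dropped the dimmest 25% of probe sets, weights per array, another normalization and leaving out each replicate in turn (0 to 0 called). The 10-array replicate block, the leave-one-out fits of 10 arrays and their rescaled versions were chosen after seeing the data. Members at an unadjusted p under 0.05 numbered 0 to 21 in GFP+ cells, the most with the 10-array replicate block, and 0 to 27 in GFP- cells. In GFP+ cells the median difference turned negative, at -0.01 after a further quantile normalization of 12 arrays and at -0.07 and -0.13 without wild-type GFP+ replicate 1 and 2; with the replicate 3 pair left out it stayed between 0.19 and 0.37. In GFP- cells it lay between -1.97 and 0.02 over all settings, and between -0.16 and 0.02 in the 14 without that pair. The X-box and protein identity parts of the plan were not run, because no sequence was used here. The product part was not run either.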
